A study of Saccharomyces cerevisiae with 8 samples.

Results

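The comparison concerned the first 10 min of rapamycin in wild-type budding yeast, Saccharomyces cerevisiae. It set 2 libraries of cells given 200 ng/mL rapamycin for 10 min against 2 libraries of untreated cells, and it covered every gene whose mean scaled signal was at least 1 over the 6 wild-type libraries. Of 6569 genes in the deposited table, 6127 met that condition. Just inside it lay YDL094C, with a mean of 1.002, and just outside it lay FIG1, with 0.9945. The study sequenced poly(A) RNA in 8 samples to follow splicing and gene expression, after rapamycin in wild type and after lowered expression of the ribosomal protein gene activator IFH1 in a splicing mutant.

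All wild-type cells were the MATa laboratory strain BY4741, whose auxotrophic deletions include leu2, met15 and ura3, and all were grown in the rich medium YPD at 30 °C to an optical density of 0.5. The groups used here were cells after 10 min of 200 ng/mL rapamycin and untreated cells, with 2 libraries each. The 10 min libraries are numbered 22 and 25 and the untreated ones 21 and 24, and paired values below follow that order. A further pair, cells after 60 min of the same dose, shared the estimate of the spread and is named only where a 10 min change was not held. The series' design text calls the replicates biological, and the p-values measure the spread between these libraries only.

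Rapamycin binds the prolyl isomerase Fpr1, and the complex inhibits TORC1, a kinase complex at the vacuole that couples growth to nutrients. Active TORC1 promotes transcription of the genes for ribosomes and their assembly factors and for the polymerases that make ribosomal and transfer RNA. It also keeps the GATA factors Gln3 and Gat1, the stress factors Msn2 and Msn4 and the retrograde factors Rtg1 and Rtg3 from acting in the nucleus.

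The strain markers were read in each library. URA3 was listed at 0 in all 4 libraries and LEU2 and MET17, the current name of MET15, lay below 2 in each. The receptor gene STE2 of a cells stood at 833 and 865 after 10 min of rapamycin and 957 and 1058 in untreated cells, whereas the alpha-cell receptor gene STE3 stood at 10.4 and 9.82 after 10 min and 9.19 and 8.34 in untreated cells. Of the other alpha-cell genes, the agglutinin gene SAG1 stood at 36.5 and 39.1 after 10 min and 31.98 and 35.1 in untreated cells. The alpha-factor gene MF(ALPHA)1 was uneven between replicates, at 1.92 and 12.7 after 10 min and 3.25 and 5.02 in untreated cells, and MF(ALPHA)2 was at 1.96 and 12.98 after 10 min and 1.52 and 3.09 in untreated cells. Total scaled signal was 2855900 and 2753329 after 10 min and 3306674 and 3206357 in untreated cells. Read numbers are unknown.

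Of the 6127 genes, 1645 were higher (26.8%) and 1848 were lower (30.2%) after 10 min, each at a limma p under 0.05 after Benjamini-Hochberg adjustment, so that 57.0% were called in all. Of these, 330 were higher by 2-fold or more (5.39% of genes) and 516 lower by 2-fold or more (8.42%). The larger changes were more often falls. At least 4-fold higher were 83 genes and at least 4-fold lower 195, and at least 8-fold higher were 28 and lower 63. The median log2 change was -0.02, with quartiles of -0.36 and 0.33. This median was largely set by the deposited scaling and is not a finding about the cells. Under that scaling the median-of-ratios factors, which compare libraries at the median gene, were 1.001 and 1.005 in untreated cells. After 10 min they were 1.000 and 1.000. The median SE of a log2 change was 0.0885. In bulk RNA, fewer cells with a transcript and less of it per cell cannot be told apart. Values are the authors' scaled signal, and log2 changes are of signal plus 1, which understates changes of low genes. When each library was instead scaled to its total signal, all log2 changes moved up by about 0.21, and 2560 genes were higher and 1152 lower.

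**Figure D1:**
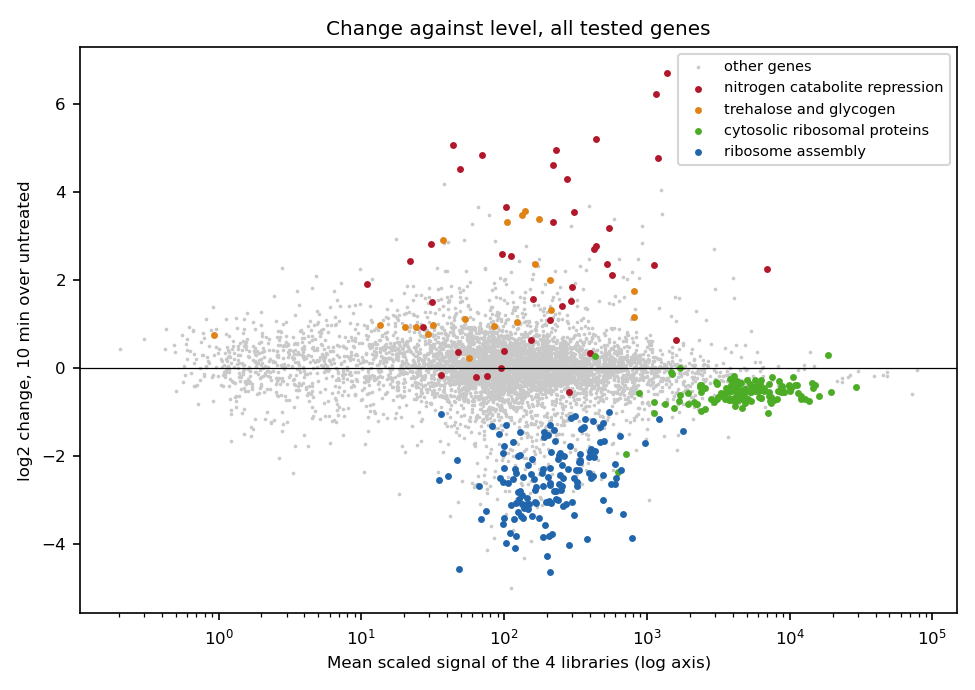
Log2 change of signal plus 1 after 10 min of rapamycin over untreated cells (vertical axis) against the mean scaled signal of the 4 libraries (horizontal axis, log scale), 1 point per tested gene. Nitrogen genes and genes of trehalose and glycogen metabolism lie mostly above 0, ribosome assembly genes all lie below -1, and ribosomal protein genes form a narrow band with a median of -0.53.

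Uptake systems for nitrogen sources had the highest median change of all lists examined. In nitrogen catabolite repression, cells with a rich nitrogen source keep genes for the use of poor sources off by holding the GATA activators Gln3 and Gat1 in the cytoplasm with Ure2. Of 14 transporter genes of this regulon tested, 13 rose, all at least 2-fold, and 0 fell, with a median log2 change of 3.74 against -0.02 for all genes. Among all genes 5.39% were higher by 2-fold or more. The general amino acid permease gene GAP1 (chromosome XI, 515063 to 516871) had 2884 and 2640.1 scaled signal in the 10 min libraries, against 21.8 and 29.4 in the untreated libraries. MEP2, whose product imports and senses ammonium, had 2403 and 2188 against 28.3 and 31.1. The ratio of the group means was 108 for GAP1 and 77.3 for MEP2, and the groups lay far apart beside the distance between replicates. On the log2 scale of signal plus 1 the fitted difference was 6.71 for GAP1 (limma adjusted p = 5.08e-08, SE 0.130) and 6.22 for MEP2 (limma adjusted p = 9.98e-09, SE 0.0792).

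GAP1 and MEP2 were also the nitrogen genes with the largest rises that hold the GATA factor site, and their promoters are shown for that reason. Each sequence is the 300 bases that end 101 bases before the start codon, read 5′ to 3′ in the direction of the gene from the R64 reference of S288C, the sacCer3 build. The GAP1 window is chrXI:514663-514962 on the plus strand and the MEP2 window chrXIV:357053-357352 on the plus strand. Capitals mark GATAAG on either strand.
GAP1: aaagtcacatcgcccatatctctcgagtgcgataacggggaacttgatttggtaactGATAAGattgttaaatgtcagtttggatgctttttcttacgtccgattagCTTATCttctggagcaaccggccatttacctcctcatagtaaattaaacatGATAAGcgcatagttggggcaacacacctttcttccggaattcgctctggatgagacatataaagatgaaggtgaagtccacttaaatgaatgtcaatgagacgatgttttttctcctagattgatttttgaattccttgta
MEP2: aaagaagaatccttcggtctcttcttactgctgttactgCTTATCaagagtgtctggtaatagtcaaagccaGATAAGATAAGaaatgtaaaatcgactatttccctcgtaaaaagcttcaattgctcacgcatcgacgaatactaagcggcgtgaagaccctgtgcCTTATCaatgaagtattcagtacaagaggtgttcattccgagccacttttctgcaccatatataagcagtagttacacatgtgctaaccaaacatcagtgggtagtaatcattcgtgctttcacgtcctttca
GAP1 held 3 matches and MEP2 held 4, of which 2 overlap in the run GATAAGATAAG. Of 5631 promoters read in the same window, 14.1% held at least 1 GATAAG and 1.51% held 2 or more. Among 42 nitrogen genes the shares were 76.2% and 47.6%.

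The other carriers in the list took up a wide range of compounds. DUR3, for urea and polyamines, had 448 and 451 after 10 min against 13.4 and 13.7 in untreated cells. The proline permease gene PUT4 had 144 and 130.4 against 4.06 and 3.52, and the broad amino acid permease gene AGP1 had 2357 and 2249 against 88.3 and 77.99. All 3 rose, by 4.95, 4.85 and 4.78 on the log2 scale. The peptide transporter genes OPT2 (4.53) and PTR2 (3.18), the ammonium transporter genes MEP1 (4.29) and MEP3 (1.56), and the permease genes UGA4 (2.81) for GABA, DAL5 (2.59) for allantoate, DAL4 (1.91) for allantoin and CAN1 (2.37) for arginine rose as well, log2 changes being given in parentheses here and below. The 1 carrier gene that was not called was FCY21, of the purine and cytosine permease family, at -0.14, although its promoter window held 3 GATAAG matches.

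Enzyme genes of the regulon followed. The list held breakdown enzymes, glutamine and glutamate synthesis genes such as GLN1 and GLT1, and vacuolar protease genes such as PRB1 and PEP4. Of its 21 genes 20 rose and 0 fell, with a median of 2.12, where 26.8% of all genes rose and 30.2% fell. DUR1,2, which encodes the urea-degrading amidolyase, had 886 and 825 after 10 min against 21.8 and 22.6 in untreated cells. The ureidoglycolate lyase gene DAL3, of allantoin breakdown, had 421 and 422 against 17.1 and 15.2. Proline oxidase gene PUT1 (3.65) and the NAD-dependent glutamate dehydrogenase gene GDH2 (3.56) were next, followed by DAL7, which encodes a malate synthase (3.31). UGA3, an activator gene of GABA use that was listed with the enzymes, was not called, at 0.00. The median rise differed little by the number of sites in the window. It was 2.40 in 20 nitrogen genes with 2 or more GATAAG, 2.30 in 12 with 1 and 2.30 in 10 with none.

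The regulators of this system moved unequally. DAL80, a GATA repressor gene of the regulon (chromosome XI, 506898 to 507707), had 81.5 and 91.6 after 10 min against 1.54 and 1.66 in untreated cells, at log2 5.07 (limma adjusted p = 4.46e-08, SE 0.0924). The activator gene GAT1 had 724 and 814 against 128 and 96.1 and rose by 2.78. Both of these lie over a short gene annotated on the opposite strand, and whether signal was assigned by strand is not stated. GZF3, the other GATA repressor gene, rose by 0.63, and the pathway activator gene DAL82 rose by 0.40, or had 109 and 118 after 10 min against 83.1 and 89.03 in untreated cells. The gene of the anchor URE2 fell, at -0.53. GLN3 at -0.19 and DAL81 at -0.18 did not pass the test. Without untreated library 24 both passed, at -0.24 and -0.23, and with total-signal scaling they stood at 0.02 and 0.03.

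**Figure D2:**
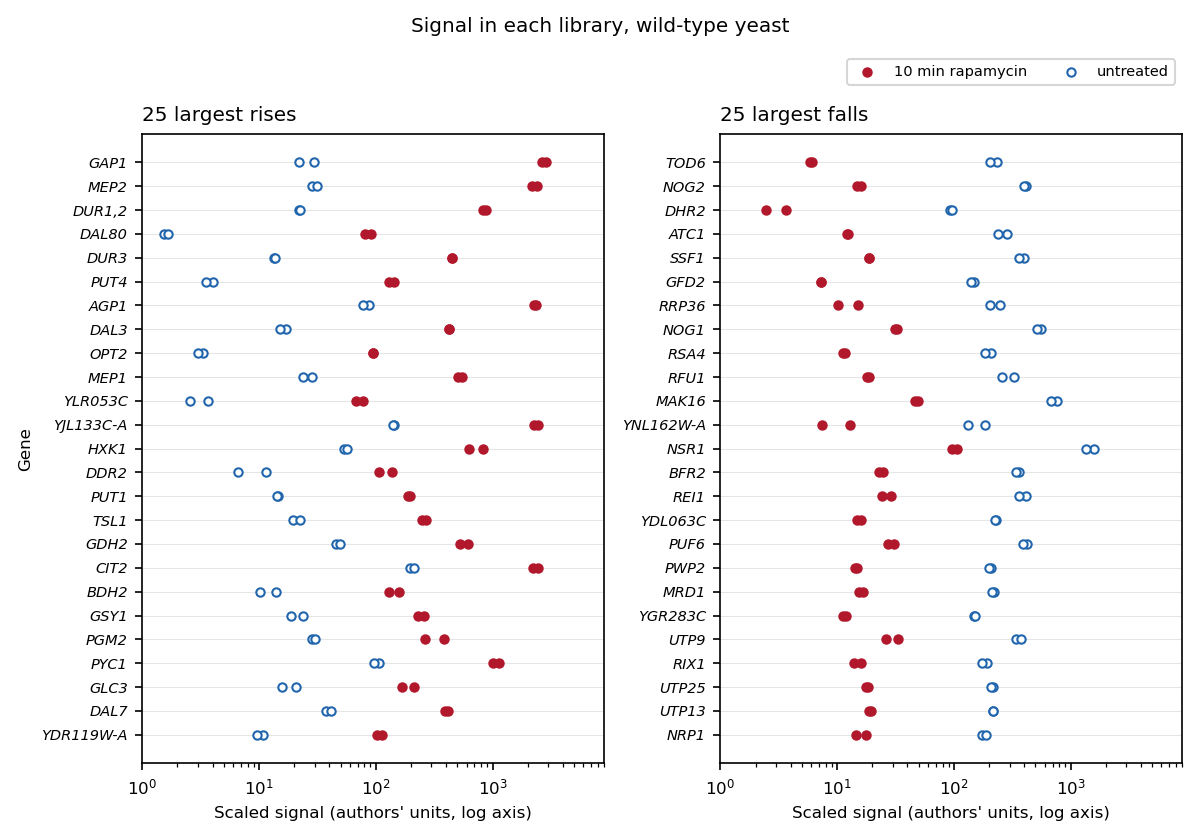
Scaled signal (horizontal axis, log scale) in each of the 2 libraries after 10 min of rapamycin (filled) and each of the 2 untreated libraries (open) for the 25 largest rises (left) and the 25 largest falls (right), 1 row per gene. In every row the 10 min points lie apart from the untreated points, as the choice of these genes required, and the replicates of a group lie close together.

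Genes of the SPS system, the sensor of external amino acids at the plasma membrane, and amino acid permeases listed with it did not move together. The list of 14 included the sensor genes SSY1, PTR3 and SSY5 and the factor genes STP1 and STP2. Of the 14 genes, 7 rose and 3 fell, where 26.8% of all genes rose and 30.2% fell. The rises were led by AGP1, which also belongs to the nitrogen list, and by DIP5, for glutamate and aspartate. DIP5 had 1755 and 1613 after 10 min against 153 and 210.2 in untreated cells, at log2 3.22 (limma adjusted p = 9.85e-07, SE 0.141). BAP3 (0.86), MUP1 (0.57), AGP3 (0.56) and GNP1 (0.54) rose by less than 2-fold, whereas the branched-chain permease gene BAP2 (-0.55) and the factor gene STP1 (-0.48) fell. MUP1 was not called without 10 min library 22, at 0.49. Among genes of permease endocytosis and the ubiquitin ligase Rsp5, 11 of 18 rose and 3 fell, beside the same shares of all genes. The polyubiquitin gene UBI4 had 1538 and 1295 after 10 min against 345 and 338 in untreated cells. RFU1, whose product inhibits the deubiquitinase Doa4, had 18.7 and 17.8 against 324 and 258, at log2 -3.92 (limma adjusted p = 1.62e-07, SE 0.113).

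Genes for ribosome assembly fell without exception among those listed. Ribosome assembly starts with the 90S particle on the ribosomal RNA precursor in the nucleolus and continues along separate routes to the 40S and 60S subunits. All 68 genes of the 90S and 40S route and all 79 genes of the 60S route tested were lower by at least 2-fold, against 8.42% of all genes. Their medians were -2.64 and -2.45. The smallest falls in the lists were TIF6 at -1.01 on the 60S route and NOP56 at -1.16 on the 40S route, both core factors. TIF6 had 365 and 361 after 10 min against 715 and 744 in untreated cells, and NOP56 had 754 and 751 against 1701 and 1657. The 10 min libraries overlapped the untreated libraries in none of these genes, a separation that 76.8% of all genes showed. The assembly genes were chosen with earlier results of these data known, so their common direction is a description.

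The deepest falls were spread over both routes. NOG2, a GTPase gene of late nuclear 60S assembly with an intron (chromosome XIV, 721120 to 723112), had 14.9 and 15.9 after 10 min against 418 and 396 in untreated cells, at log2 -4.64 (limma adjusted p = 2.92e-08, SE 0.0774). DHR2, an RNA helicase gene of 18S production, had 2.47 and 3.65 against 92.4 and 96.2, at log2 -4.57 (limma adjusted p = 1.75e-06, SE 0.223). The GTPase gene NOG1 had 32.6 and 31.1 against 556 and 514, and NSR1, which encodes a nucleolin-like protein, had 96.1 and 106 against 1596 and 1349.5. In all 4 the groups lay far apart, with DHR2 close to the lower end of the measured signal after 10 min. Other members among the 25 largest falls on the 60S route were SSF1 (-4.26), RSA4 (-3.98), MAK16 (-3.88), REI1 (-3.82), PUF6 (-3.76), RIX1 (-3.53) and YDL063C (-3.81), the import partner of Rpl5 and Rpl11 that R64 calls SYO1. On the 90S route they were RRP36 (-4.09), BFR2 (-3.83), PWP2 (-3.74), UTP9 (-3.56) and UTP13 (-3.43), and 2 further assembly genes outside the lists were MRD1 (-3.68) and UTP25 (-3.48). NSR1, REI1 and YDL063C overlap a gene on the opposite strand.

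Promoters of assembly genes often carry a PAC element, here GATGAG, bound by Tod6 and Dot6, and an RRPE element, here AAAATTTT, bound by Stb3. NOG2 and RRP36 had the largest falls among assembly genes whose window held both, and are shown with GATGAG and AAAATTTT in capitals on either strand. The NOG2 window is chrXIV:723213-723512 on the minus strand and the RRP36 window chrXV:851940-852239 on the minus strand, both printed in the direction of the gene.
NOG2: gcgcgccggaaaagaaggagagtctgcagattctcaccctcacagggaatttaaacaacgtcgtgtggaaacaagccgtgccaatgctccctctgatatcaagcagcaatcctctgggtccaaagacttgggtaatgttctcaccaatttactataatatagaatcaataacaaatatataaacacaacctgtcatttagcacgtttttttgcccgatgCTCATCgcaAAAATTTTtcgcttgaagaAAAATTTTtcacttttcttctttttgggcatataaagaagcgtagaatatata
RRP36: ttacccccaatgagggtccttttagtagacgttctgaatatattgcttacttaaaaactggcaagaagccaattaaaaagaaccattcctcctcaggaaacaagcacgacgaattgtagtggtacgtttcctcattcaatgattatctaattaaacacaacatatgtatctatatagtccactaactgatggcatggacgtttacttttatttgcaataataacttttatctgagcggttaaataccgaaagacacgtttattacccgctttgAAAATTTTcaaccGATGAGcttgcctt
In NOG2 the sites were 1 GATGAG, written CTCATC on the strand shown, and 2 AAAATTTT, and in RRP36 they were 1 of each. GATGAG was found in 59.6% of 146 assembly promoters and in 18.5% of all 5631, AAAATTTT in 66.4% and 9.31%, and both together in 47.3% and 3.94%. The median fall was 2.67 on the log2 scale in the 69 genes with both, 2.49 in the 46 with 1 of the pair and 1.97 in the 31 with neither. Falls within each class ranged widely, and DHR2 and SSF1, at -4.57 and -4.26, were in the class with neither.

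**Figure D3:**
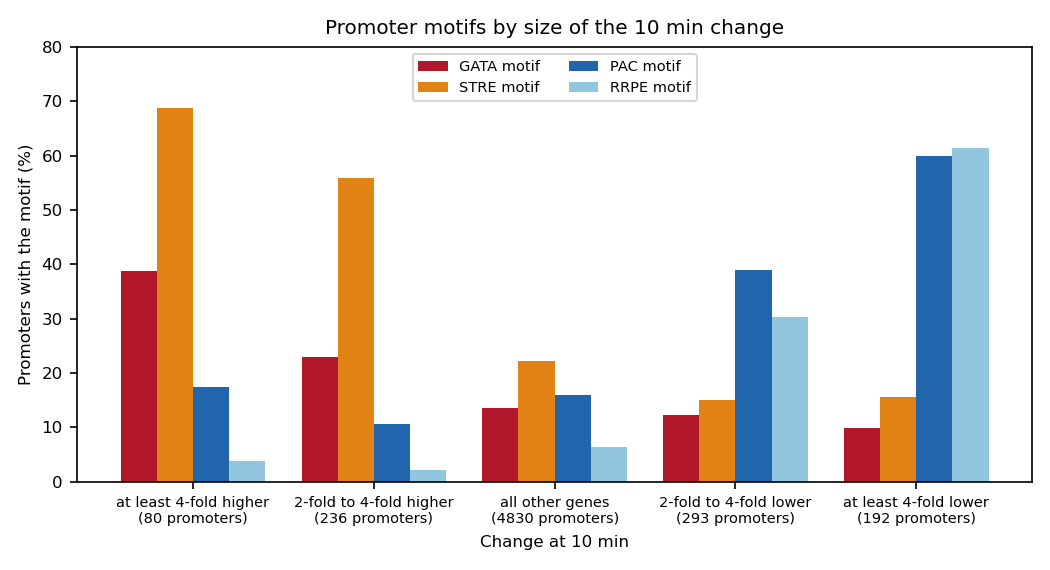
Share of promoters (vertical axis, percent) that hold the GATA, STRE, PAC or RRPE letters on either strand in the window from 400 to 101 bases before the start codon, in 5 classes of change at 10 min (horizontal axis). GATA reached 38.8% and STRE 68.8% of the 80 promoters of genes at least 4-fold higher, and PAC 59.9% and RRPE 61.5% of the 192 promoters of genes at least 4-fold lower.

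Across all genes the same letters were unevenly spread over the classes of change. AGGGG, the stress response element read by Msn2 and Msn4, was in 68.8% of promoters of genes at least 4-fold higher, 55.9% of those 2-fold to 4-fold higher, 22.2% of those of all other genes, 15.0% of those 2-fold to 4-fold lower and 15.6% of those at least 4-fold lower. The share with GATAAG went down over those classes, with 38.8% in the first and 9.90% in the last. RRPE letters were most frequent at the bottom, with 3.75%, 2.12%, 6.4%, 30.4% and 61.5% over the classes from highest to lowest. TGACTC, the core of the Gcn4 site, followed no order over the same classes from highest to lowest, at 12.5%, 6.36%, 8.53%, 14.3% and 5.21%, and was in 8.68% of all promoters. These are shares of letters, not of bound sites, and the classes differ in how many genes they hold.

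Regulators of ribosome synthesis genes were themselves unequal in their response, with 1 of 12 higher and 7 lower, beside 26.8% and 30.2% of all genes. TOD6, the PAC-binding repressor gene (chromosome II, 117589 to 119166), had the largest fall of all 6127 genes, with 6.03 and 5.80 after 10 min against 233 and 204 in untreated cells, at log2 -4.99 (limma adjusted p = 9.94e-08, SE 0.125). Its paralogue DOT6 was not called, at -0.29, with 223 and 233 against 339 and 230.3, and neither was the RRPE-binding repressor gene STB3, at 0.20. Without untreated library 24 DOT6 was called, at -0.57, and without untreated library 21 STB3 was, at 0.30. IFH1, the activator gene that acts with Fhl1 at ribosomal protein promoters, had 41.2 and 42.5 against 181 and 144, and FHL1 itself fell by 0.54 on the log2 scale. The corepressor gene CRF1, whose product competes with Ifh1 for Fhl1, rose, with 15.5 and 14.8 after 10 min against 9.80 and 6.57 in untreated cells, at log2 0.84 (limma adjusted p = 0.00497, SE 0.177). The zinc finger activator gene SFP1 (-0.36), RAP1 (-0.30) and the high-mobility-group gene HMO1 (-0.37) fell by less, and under total-signal scaling they stood at -0.15, -0.08 and -0.15 and were no longer called. RAP1 was not called either without 10 min library 22, at -0.21, or untreated library 24, at -0.24, nor HMO1 without 10 min library 22, at -0.38, or 25, at -0.35.

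Polymerase genes fell with the assembly genes. Of 30 genes for RNA polymerase I and III subunits and their initiation factors, 25 fell and 3 rose, with a median of -1.51. Of all genes 30.2% fell and 26.8% rose. RRN11, of the core factor of polymerase I, had 13.2 and 13.7 after 10 min against 127 and 118 in untreated cells, at log2 -3.09 (limma adjusted p = 1.97e-07, SE 0.0964). The polymerase I subunit genes RPA49 (-2.69), RPA34 (-2.43), RPA12 (-2.31) and RPA135 (-2.25) followed. The 3 that rose belong to TFIIIC, the factor that binds the internal promoter of transfer RNA genes, namely TFC3 (0.49), TFC8 (0.36) and TFC7 (0.18). TFC8 was not called without 10 min library 25, at 0.31, and TFC7 not without 10 min library 22, at 0.18, or 25, at 0.18, or without untreated library 21, at 0.14.

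Enzymes that modify transfer and ribosomal RNA fell nearly as far. Of 36 such genes 35 fell and 0 rose, with a median of -1.50, where 30.2% of all genes fell and 26.8% rose. DUS3, a dihydrouridine synthase gene, had 26.6 and 26.1 after 10 min against 228 and 203 in untreated cells, at log2 -2.98 (limma adjusted p = 1.97e-07, SE 0.0928). The methyltransferase genes TRM2 (-2.92) and TRM11 (-2.83) and the thiolation gene NCS2 (-2.75) were close behind. MOD5, which encodes the isopentenyl transferase of transfer RNA, was the 1 member not called, at 0.12, and under total-signal scaling it was called higher, at 0.34.

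Nucleotide synthesis, which supplies the precursors of RNA, was lower too. Of 33 genes 27 fell and 3 rose, with a median of -0.80, where 30.2% of all genes fell and 26.8% rose. The guanine salvage gene HPT1 had 216 and 246 after 10 min against 1928 and 1740.3 in untreated cells, at log2 -2.99 (limma adjusted p = 1.63e-07, SE 0.0874). The CTP synthase gene URA7 had 93.98 and 99.6 against 613 and 597, whereas its paralogue URA8 had 175 and 155 against 138 and 119 and rose by 0.36. The IMP dehydrogenase gene IMD4 (-1.52), the ribose phosphate pyrophosphokinase gene PRS4 (-1.51) and the uridine permease gene FUI1 (-1.48) fell, and URA10 (0.46) rose. URA8 was not called without 10 min library 22, at 0.28. RKI1, which makes ribose 5-phosphate in the pentose phosphate pathway, had 175 and 182 after 10 min against 636 and 583 in untreated cells, at -1.76.

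Genes of the translation apparatus other than the ribosome fell by smaller amounts. Of 37 initiation, elongation and termination factor genes 33 fell and 0 rose, with a median of -0.73. Of all genes 30.2% fell and 26.8% rose. Under total-signal scaling 29 of the factor genes were lower and 0 higher. The eIF3 subunit genes NIP1 (-1.72) and RPG1 (-1.40), the eIF2B subunit gene GCD2 (-1.20) and the elongation factor 3 gene YEF3 (-1.16) changed most, together with the eIF4G gene TIF4631. TIF4631 had 151 and 156 after 10 min against 439 and 451 in untreated cells, and its paralogue TIF4632 had 112 and 119.6 against 122 and 118 and was not called. Of 21 cytosolic aminoacyl-tRNA synthetase genes 19 fell and 0 rose, with a median of -0.54 and the largest fall in YHR020W, for prolyl-tRNA synthetase (-1.08). Under total-signal scaling 15 of the synthetase genes were lower and 0 higher. Among 20 genes of nuclear transport 14 fell and 1 rose, and under total-signal scaling 9 were lower and 1 higher. The transfer RNA exporter gene LOS1 (-1.51) and the importin genes KAP123 (-1.42) and PSE1 (-1.35), whose products carry ribosomal proteins into the nucleus, were the lowest.

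Ribosomal protein genes stood apart from the assembly genes in size. Of 138 tested, 117 fell, where 30.2% of all genes fell. Only 4 fell by 2-fold or more, against 8.42% of all genes and all 147 of the assembly genes. The genes that crossed 2-fold included members of duplicated pairs whose partners did not. RPL22B had 198 and 211 after 10 min against 1162 and 960.0 in untreated cells, and RPL22A had 4783 and 4977 against 7416 and 8252, log2 changes of -2.36 and -0.68. RPS9A had 286 and 301 against 1250.0 and 1029.9, and RPS9B had 5496 and 5349 against 9970.3 and 8344, at -1.95 and -0.75. RPS14B was at -1.02 and RPS14A at -0.43, and under total-signal scaling RPS14A was at -0.22 and not called. RPL12A also crossed 2-fold, at -1.02, with 4598 and 4719 against 10814 and 8288, and it lies over a short gene on the opposite strand. RPL15B was the 1 gene that rose, at 0.27, and without 10 min library 25 it stood at 0.26 and was not called. The sources do not give how reads shared by near-identical copies were divided. Under total-signal scaling 89 were lower and 2 higher. Ribosomal protein genes with introns had a median of -0.54 and those without -0.50.

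**Figure D4:**
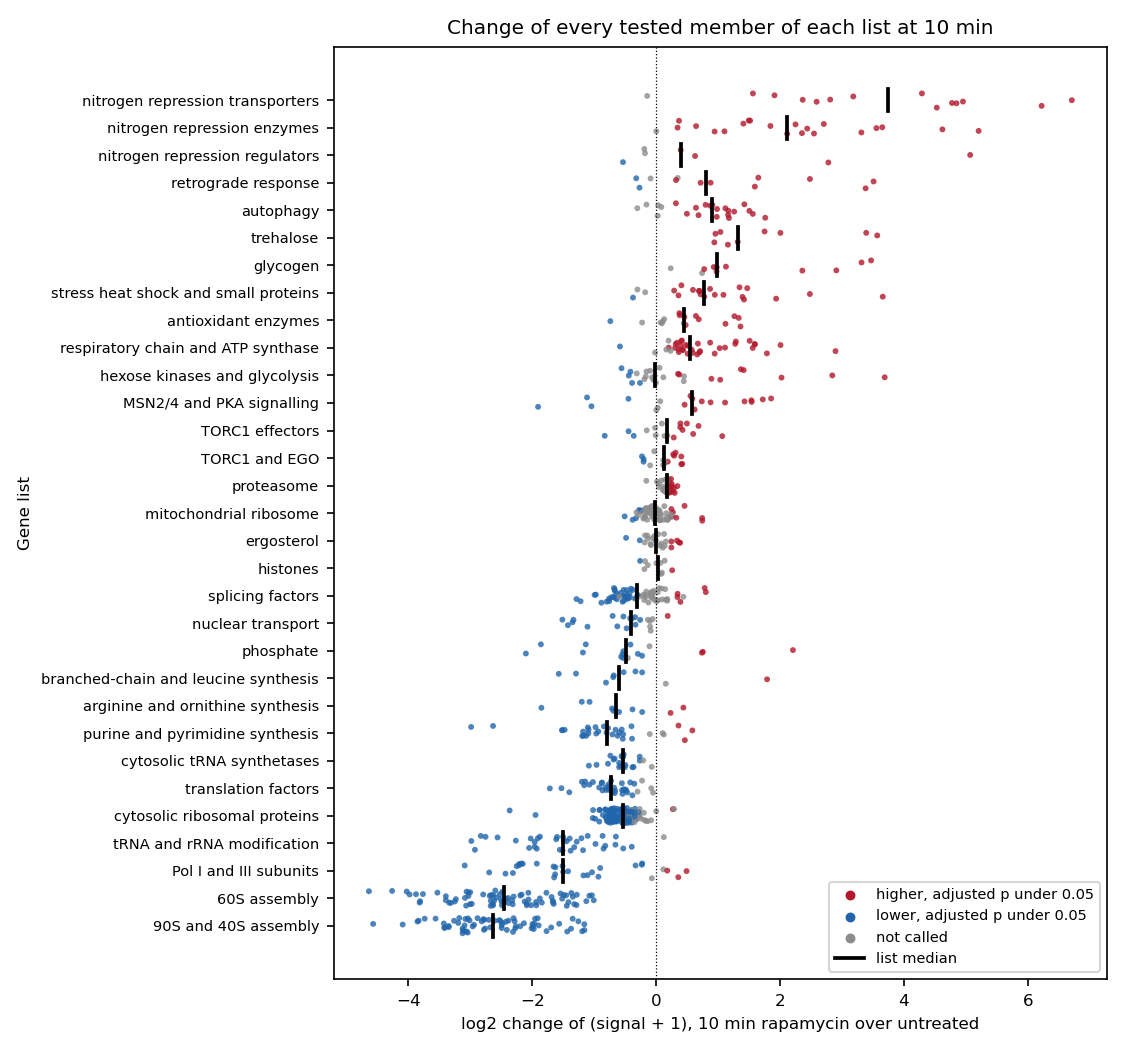
Log2 change of signal plus 1 after 10 min of rapamycin over untreated cells (horizontal axis) for every tested member of 31 gene lists (vertical axis), 1 point per gene, coloured by its call, with a bar at the list median. Medians run from 3.74 for nitrogen transporters to -2.64 for 90S and 40S assembly, and under total-signal scaling every point would lie about 0.21 further right.

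Genes for reserve carbohydrates rose. Trehalose and glycogen are the sugar stores that yeast lays down when growth slows. All 9 trehalose genes rose, against 26.8% of all genes, with a median of 1.32, and 9 of 11 glycogen genes rose, with a median of 0.98. TSL1, a regulatory subunit gene of trehalose synthase, had 272 and 248 after 10 min against 19.6 and 22.4 in untreated cells, at log2 3.57 (limma adjusted p = 9.94e-08, SE 0.0897). The glycogen synthase gene GSY1 had 261 and 230.2 against 18.95 and 23.7, and the branching enzyme gene GLC3 had 214 and 166 against 15.6 and 20.8. PGM2, whose phosphoglucomutase feeds both stores, had 386 and 264 against 28.6 and 30.3, the 10 min replicates lying further apart than the untreated ones. Genes for breakdown rose with those for synthesis, such as the glycogen phosphorylase gene GPH1 (2.91) and the trehalase genes NTH1 (1.32), NTH2 (0.96) and ATH1 (0.94). GPH1 overlaps a gene on the opposite strand.

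DDR2 and TSL1 had the largest rises among trehalose, glycogen and stress genes with a stress response element, and their windows are shown with AGGGG in capitals on either strand. The DDR2 window is chrXV:231856-232155 on the minus strand and the TSL1 window chrXIII:70224-70523 on the plus strand.
DDR2: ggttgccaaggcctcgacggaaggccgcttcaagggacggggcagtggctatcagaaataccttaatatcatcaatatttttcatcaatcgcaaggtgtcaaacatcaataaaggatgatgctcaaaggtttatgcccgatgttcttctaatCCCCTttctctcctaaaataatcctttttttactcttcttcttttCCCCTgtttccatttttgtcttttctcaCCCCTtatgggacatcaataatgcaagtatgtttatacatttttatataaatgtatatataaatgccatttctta
TSL1: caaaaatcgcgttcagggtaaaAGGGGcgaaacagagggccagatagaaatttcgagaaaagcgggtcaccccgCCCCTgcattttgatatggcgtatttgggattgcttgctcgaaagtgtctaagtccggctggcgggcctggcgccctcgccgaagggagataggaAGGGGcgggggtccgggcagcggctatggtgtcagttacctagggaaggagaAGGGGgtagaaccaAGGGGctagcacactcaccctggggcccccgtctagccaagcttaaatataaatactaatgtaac
DDR2 held 3 matches, all written CCCCT on the strand shown, and TSL1 held 5. Of 41 promoters of these lists 75.6% held at least 1 AGGGG and 53.7% held 2 or more, against 23.7% and 4.10% of all promoters. The median rise was 1.33 in the 22 genes with 2 or more, 0.94 in the 9 with 1 and 0.87 in the 10 with none.

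Of 21 stress-induced heat shock and small protein genes 18 rose and 1 fell, with a median of 0.78. Of all genes 26.8% rose and 30.2% fell. DDR2, a multi-stress gene, had 138 and 107 after 10 min against 11.4 and 6.57 in untreated cells. The small heat shock gene HSP42 (2.48), the repressor gene XBP1 (1.94) and the disaggregase gene HSP104 (1.47) rose. Of 17 antioxidant genes 10 rose, led by the peroxiredoxin genes TSA2 (1.36) and PRX1 (1.26) and the cytosolic catalase gene CTT1 (1.33). The 1 that fell was the other catalase gene, CTA1 (-0.74). It was low throughout, at 4.16 and 4.03 after 10 min against 8.67 and 6.47 in untreated cells.

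Signalling genes of the stress and glucose responses changed as well. Of 19 genes of the protein kinase A, Msn2/4 and glucose repression systems 12 rose and 4 fell, beside 26.8% and 30.2% of all genes. The stress activator gene MSN4 had 82.1 and 91.4 after 10 min against 25.1 and 21.4 in untreated cells, at log2 1.86 (limma adjusted p = 3.07e-06, SE 0.101), and its paralogue MSN2 (0.46) rose less. The kinase subunit gene TPK2 (1.43) rose, whereas TPK3 had 89.4 and 97.1 against 195 and 191 and fell. RAS1 had 71.1 and 77.9 against 304 and 260.3, at -1.91, whereas RAS2 (0.62) rose. The kinase gene YAK1 (1.11), which protein kinase A opposes, and the glucose-repressed activator genes CAT8 (1.54) and ADR1 (1.54) rose.

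Components of TORC1 itself moved little. Of 16 genes for TORC1 and its vacuolar regulators 7 rose and 3 fell, beside 26.8% and 30.2% of all genes. None changed 2-fold, with LST8 (0.42) and RTC1 (-0.23) at the ends. TOR1 had 23.3 and 21.3 after 10 min against 17.3 and 18.1 in untreated cells and rose by 0.32, and TOR2 at -0.03 was not called, with values from -0.13 to 0.07 when 1 library was left out. TOR1 was not called without 10 min library 22, at 0.26, or 25, at 0.38, or without untreated library 21, at 0.29. RTC1, GTR1 (-0.20) and YBL104C (-0.20) fell, but under total-signal scaling they stood at -0.02, 0.01 and 0.01. None of these 3 was called without 10 min library 22, at -0.19, -0.21 and -0.21, or 25, at -0.27, -0.20 and -0.19. RTC1 and YBL104C were not called without untreated library 24, at -0.19 each, nor YBL104C without untreated library 21, at -0.21. Among 17 effector genes 8 rose and 3 fell, beside the same shares of all genes. The kinase gene NPR1, which stabilises Gap1 and other permeases, had 116 and 113 against 56.6 and 51.3, at log2 1.07 (limma adjusted p = 2.82e-05, SE 0.0865). SCH9, the gene of the kinase through which TORC1 promotes ribosome synthesis, had 40.2 and 45.2 against 81.8 and 71.5 and fell by 0.83. YBR028C, called YPK3 in R64 after the kinase that phosphorylates ribosomal protein S6, and the phosphatase gene SIT4 fell, at -0.44 and -0.36. YBR028C was not called without 10 min library 22, at -0.35, and neither was called under total-signal scaling, at -0.23 and -0.15. The polymerase III repressor gene MAF1 (0.39) and the kinase gene ATG1 (0.69) rose.

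Autophagy delivers cytoplasm to the vacuole when TORC1 is off. Of 23 autophagy genes 18 rose and 0 fell, with a median of 0.91, where 26.8% of all genes rose and 30.2% fell. YLR312C, for the nuclear envelope receptor that R64 calls ATG39, had 11.1 and 9.99 after 10 min against 2.02 and 2.82 in untreated cells, at log2 1.76 (limma adjusted p = 9.88e-05, SE 0.178). ATG8 (1.56), ATG7 (1.51), ATG29 (1.43) and ATG34 (1.26) were next, the last 2 of which overlap a gene on the opposite strand.

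Genes of sugar entry and the first step of glycolysis split by isoform. HXK1 had 834 and 623 after 10 min against 53.3 and 56.5 in untreated cells, at log2 3.69 (limma adjusted p = 3.98e-07, SE 0.134), and the glucokinase gene GLK1, which overlaps a gene on the opposite strand, had 1751 and 1522 against 225 and 228. HXK2, the hexokinase gene of rapid growth, had 3829 and 3326 against 3412 and 3171 and was not called, though under total-signal scaling it was, at 0.33. The pyruvate kinase gene PYK2 (2.03), GPM2 (1.41) and the glyceraldehyde phosphate dehydrogenase gene TDH1 (1.37) rose, and PFK2 (-0.56), PFK1 (-0.44) and PFK27 (-0.41) fell. Of 14 hexose transporter and sensor genes tested 6 rose and 3 fell, where 26.8% of all genes rose and 30.2% fell. The low-affinity transporter gene HXT1 had 189 and 192 against 632 and 535, at log2 -1.61 (limma adjusted p = 3.57e-06, SE 0.0901). The transporter genes HXT7 (1.59), HXT4 (1.23) and HXT6 (1.22) rose, HXT6 and HXT7 being near-identical copies.

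Respiration and the retrograde genes, which make glutamate precursors from mitochondrial carbon, were higher. Of 38 genes for the respiratory chain and ATP synthase 33 rose and 1 fell, with a median of 0.54. CYC7, an isoform gene of cytochrome c, had 159.7 and 146 after 10 min against 17.4 and 22.2 in untreated cells, at log2 2.90 (limma adjusted p = 6.63e-07, SE 0.117). The succinate dehydrogenase gene SDH1 (2.01), CYT1 (1.79) and the cytochrome oxidase isoform gene COX5B (1.60) rose, and the external NADH dehydrogenase gene NDE1 (-0.58) fell while NDE2 (1.29) rose. Of 12 retrograde genes 8 rose and 2 fell, with a median of 0.80, where 26.8% of all genes rose and 30.2% fell. The citrate synthase gene CIT2 had 2453 and 2219 against 195 and 213 and CIT1 (2.48) rose. The aconitase gene ACO1 had 943 and 864 against 276 and 298 and rose by 1.65. Mitochondrial ribosomal protein genes stayed near the middle of all genes, with a median of -0.02, 7 higher and 6 lower of 64. Under total-signal scaling 28 of them were higher and 1 lower, as that scaling moved all genes up.

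Arginine and branched-chain amino acid synthesis genes were mostly lower under the deposited scaling. Of 10 arginine genes 8 fell and 2 rose, and of 10 branched-chain genes 8 fell and 1 rose, where 30.2% of all genes tested fell and 26.8% rose. Under total-signal scaling 6 arginine genes were lower and 2 higher, and 6 branched-chain genes were lower and 2 higher. CPA1, a subunit gene of arginine-specific carbamoyl phosphate synthetase, had 177 and 155 after 10 min against 660.2 and 544 in untreated cells, at log2 -1.85 (limma adjusted p = 4.73e-06, SE 0.109). The mitochondrial transaminase gene BAT1 (-0.68) fell and the cytosolic BAT2 (1.79) rose. HIS4 (-1.11), LYS4 (-1.09), SAM1 (-1.22) and the spermidine pathway gene SPE2 (-1.27) fell by 2-fold or more. Of 20 aromatic and histidine genes 14 fell and 2 rose, with a median of -0.35, and under total-signal scaling 9 were lower and 4 higher. Of 9 lysine genes 6 fell and 1 rose under the deposited scaling, and 3 were lower and 2 higher under total-signal scaling. Of 27 sulphur and methionine genes 8 rose and 7 fell, shares near those of all genes, and under total-signal scaling 16 were higher and 3 lower.

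Phosphate genes were lower in 11 of 16 cases and higher in 3, beside 30.2% and 26.8% of all genes. The high-affinity phosphate transporter gene PHO84 had 713 and 690.0 after 10 min against 2575 and 2523 in untreated cells, at log2 -1.86 (limma adjusted p = 9.31e-07, SE 0.0806). PHM6 (-2.10), the acid phosphatase gene PHO3 (-1.18) and the sodium phosphate transporter gene PHO89 (-1.13) fell too. PHM8, which encodes a nucleotide phosphatase, rose instead, with 385 and 361 against 83.2 and 76.7, and the vacuolar alkaline phosphatase gene PHO8 (0.76) rose. Of 18 iron genes 9 fell and 3 rose under the deposited scaling, but 3 were lower and 4 higher under total-signal scaling, so the balance of the list depended on the scaling. AFT2 (-0.77), FRE1 (-0.75) and FTR1 (-0.57) were among the falls and the haem oxygenase gene HMX1 (1.42) was the largest rise. Of 16 inositol and phospholipid genes 7 rose and 2 fell, and under total-signal scaling 10 were higher and 1 lower. The phospholipid methylation genes OPI3 (0.91) and CHO2 (0.87) and the choline kinase gene CKI1 (1.21) rose, whereas INO2 (-0.66) fell.

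Several other groups moved little or in small steps. Of 10 histone genes 1 rose and 1 fell, and of 25 ergosterol genes 5 rose and 2 fell, with medians of 0.04 and -0.01. Under total-signal scaling 4 histone genes were higher and 0 lower, and 13 ergosterol genes were higher and 1 lower. Of 33 proteasome genes 14 rose and 0 fell, with a median of 0.18 and no change of 2-fold, and under total-signal scaling 32 were higher. Of 17 cyclin and G1 regulator genes 5 fell and 2 rose, against 30.2% and 26.8% of all genes tested, with FAR1 (-0.84), the inhibitor gene of pheromone arrest, and the G1 cyclin gene CLN3 (-0.67) lowest. Under total-signal scaling 2 were lower and 7 higher. CLN3 had 93.3 and 91.3 after 10 min against 167 and 130.0 in untreated cells. Of 70 splicing genes 34 fell and 5 rose, but only 2 by 2-fold, PRP24 (-1.28) and SYF2 (-1.22), and under total-signal scaling 27 were lower and 13 higher. The surveillance genes UPF3 (-0.88), NMD2 (-0.73) and NAM7 (-0.65) of nonsense-mediated decay fell, and the decapping activator gene EDC2 (1.05) rose. Genes with introns outside the ribosomal proteins had a median of 0.09 over 168 genes, 50 of them higher and 40 lower, shares near those of all genes, and under total-signal scaling 86 were higher and 20 lower. Of 69 small nucleolar RNA genes with signal in these poly(A) libraries 1 was higher and 21 lower, with a median of -0.37. The share of falls was near the 30.2% of all genes, but the share of rises was far below their 26.8%. By 2-fold or more 8 were lower, against 8.42% of all genes. Under total-signal scaling 3 of the small nucleolar RNA genes were higher and 12 lower.

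The calls were also read over pairs of related genes. Among 72 pairs of paralogues or isoenzymes in which both members were tested, 13 had a member called higher and the other called lower, 14 had both higher and 7 both lower. In 32 pairs only 1 member was called, and in 6 neither was. Of all genes tested 26.8% were called higher and 30.2% lower, and the pairs were not tested against other genes. The pairs were listed with earlier results known. The widest gap among the opposed pairs was between URA7 and URA8, at 2.99 on the log2 scale, followed by RAS1 and RAS2 at 2.53 and BAT2 and BAT1 at 2.48. GPD1, for glycerol 3-phosphate dehydrogenase, had 994 and 912 after 10 min against 309 and 356 in untreated cells and rose by 1.52, and GPD2 had 285 and 291 against 502 and 433 and stood at -0.69. GPD1 overlaps a gene on the opposite strand. The histone demethylase family gene GIS1 (0.74) rose and its paralogue RPH1 (-1.11) fell. A difference in the calls of a pair is not a test of the difference between its members.

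Among the 25 largest changes in each direction some had no place in a list. The short reading frames YJL133C-A and YLR053C, which R64 calls DPI8 and NRS1, were among them. YJL133C-A had 2458 and 2253 after 10 min against 144 and 139.8 in untreated cells, and YLR053C had 77.3 and 67.7 against 2.54 and 3.65. YDR119W-A, called COX26 in R64 and encoding a small cytochrome oxidase subunit, had 103 and 113 against 10.8 and 9.68. BDH2, a dehydrogenase gene beside its paralogue BDH1, had 159 and 130.4 against 14.01 and 10.3. On the other side ATC1, GFD2, YNL162W-A and NRP1 fell, with log2 changes of -4.32, -4.13, -3.86 and -3.42. GFD2 had 7.24 and 7.30 against 147 and 141, with close replicates in each group.

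One stretch of the genome held 6 neighbouring genes that were all lower by at least 2-fold. It lay on chromosome XV from 954344 to 967625 and held TEA1, YOR338W, UBC11, RPA43, RPA190 and YOR342C, at -1.72, -1.75, -1.72, -2.21, -2.21 and -2.29. RPA43 and RPA190 encode subunits of RNA polymerase I. RPA190 had 41.2 and 42.8 after 10 min against 208 and 188 in untreated cells. TEA1, an activator gene of Ty1 transcription, had 29.03 and 27.7 against 98.1 and 93.3. No other run of at least 4 neighbours within 10 kb of each other moved together by that much, in either direction. The rule asked for 2-fold in every successive gene, so it did not count the nitrogen genes DAL4 (1.91), DAL7 (3.31) and DAL3 (4.62). Those lie between 408468 and 415617 on chromosome IX.

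A small set of these changes had returned close to untreated cells at 60 min. A gene was counted when it was called with at least 2-fold at 10 min, called the other way between 60 and 10 min, and within 0.5 of untreated cells on the log2 scale at 60 min. There were 20 such rises (0.326% of genes) and 38 such falls (0.620%). The rule leaves out changes that shrank but stayed further from untreated cells, or that went past them. Examples are HXK1, at 3.69 after 10 min and 0.70 after 60 min, and HXT7, at 1.59 and -0.70. The 10 min libraries enter both comparisons, so the counts describe the rule. GSY1 was the largest of the rises, at 28.8 and 24.7 after 60 min against 261 and 230.2 after 10 min, a log2 difference of -3.15 (SE 0.129, limma adjusted p = 5.22e-07). EMI2, a paralogue gene of glucokinase, stood at 131 and 132 in untreated cells, 694 and 551 at 10 min and 136 and 131 at 60 min. The stress sensor gene WSC4 (1.83), ADR1 (1.54), the mitochondrial elongation factor gene MEF2 (1.52), GPD1 (1.52), the outer membrane gene OM14 (1.41) and YLR132C (1.33) made up the 8 largest.

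NAF1, of small nucleolar ribonucleoprotein assembly, was the largest of the early falls. It stood at 250.2 and 201 in untreated cells, 37.7 and 34.7 at 10 min and 252 and 250.1 at 60 min, and the difference between 60 and 10 min was 2.76 (SE 0.107, limma adjusted p = 3.87e-07). BAS1, an activator gene of adenine and histidine synthesis, stood at 120.5 and 102 in untreated cells, 19.3 and 19.4 at 10 min and 89.2 and 92.3 at 60 min. IFH1 stood at 181 and 144 in untreated cells, then at 41.2 and 42.5 and, at 60 min, at 132 and 132. The RNase P and MRP subunit gene POP1 (-1.68), YMR185W (-1.73), the cytoplasmic 60S assembly gene JJJ1 (-1.67), YGR251W (-1.58) and the polynucleotide kinase gene GRC3 (-1.58) were the others among the 8 largest, with their 10 min changes in parentheses. JJJ1 overlaps 2 genes on the opposite strand. Against untreated cells at 60 min, GRC3 (-0.46), JJJ1 (-0.40), IFH1 (-0.29) and BAS1 (-0.28) were still called lower. MEF2, of the early rises, was called lower at 60 min too, at -0.44.

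**Figure D5:**
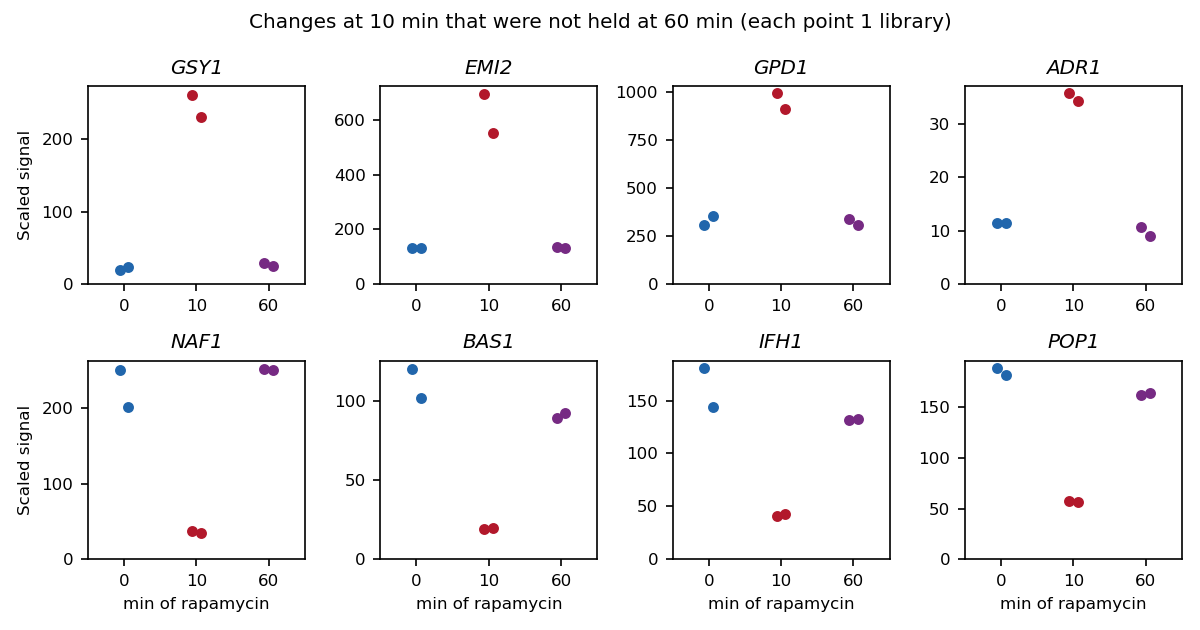
Scaled signal (vertical axes, each from 0) of 8 genes in untreated cells (0 min) and after 10 and 60 min of rapamycin, with 1 point per library and times spaced evenly rather than to scale. GSY1, EMI2, GPD1 and ADR1 are high and NAF1, BAS1, IFH1 and POP1 low in both 10 min libraries, and at 60 min each is within 0.5 of untreated cells on the log2 scale.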

How the data were processed

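Poly(A) RNA of 2 libraries per group was sequenced from strand-specific libraries, per the labels' protocols. The submitters' processing notes name TopHat, Bowtie and the sacCer3 build. The authors deposited 1 table with a scaled signal per gene and library, which equals the unscaled signal beside it times 1 constant per library. No source states how signal was summarised per gene, whether by strand or per length, and read depth is unknown. The scaled signal was used as deposited, as log2(signal + 1). Genes with a mean of at least 1 over the 6 wild-type libraries were fitted by group in limma 3.58.1 (R 4.3.3) with an intensity trend, and p-values were adjusted over all 6127 genes by the Benjamini-Hochberg method. The fit was tested on simulated data. The table's other 10 columns of per-sample values were not used.

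Members and gene lists were chosen with earlier results of these data known. Genes named were the 25 largest called changes in each direction with a mean of at least 10 and groups apart, up to 5 called members per list, regulators and markers, the 8 largest early-only changes each way and neighbour runs. Further genes, such as the remaining nitrogen carriers and the paralogue partners, were named after their values were seen, and 2 genes are not reported here. Of the table's genes 5872 matched an R64 locus tag. Promoter windows of 5631 genes were searched for 9 motifs on both strands. The alternatives were other pseudocounts, filters, variance priors, total-signal scaling, leaving out each library and, chosen after seeing the data, a block on runs of library numbers.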

Additional observations from a re-analysis of the deposited data

Results flagged for a closer look

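Among all 6127 genes, 12 (0.196%) were changed by at least 2-fold one way at 10 min and by at least 2-fold the other way at 60 min, each against untreated cells and each past the limma threshold. These genes are given because their change against untreated cells differed in direction between the 2 times and the difference itself passed the limma test. Both times share the untreated libraries.

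Of these, 9 were low at 10 min and high at 60 min. YOR302W, the short leader reading frame of CPA1, stood at 355 and 255 in untreated cells, 77.2 and 73.4 at 10 min and 1982 and 2017 at 60 min. CPA1 itself stood at 660.2 and 544 in untreated cells, 177 and 155 at 10 min and 4073 and 3917 at 60 min, and the ornithine carbamoyltransferase gene ARG3 at 90.4 and 71.03 in untreated cells, 33.3 and 35.4 at 10 min and 279 and 285 at 60 min. The difference of 60 min from 10 min was 4.713 for YOR302W, 4.586 for CPA1 and 3.001 for ARG3 on the log2 scale. The riboflavin transporter gene MCH5 stood at 87.3 and 87.97 in untreated cells, 40.1 and 35.7 at 10 min and 649.9 and 567 at 60 min, a difference of 3.968, and ICY2 at 348 and 241 in untreated cells, 99.1 and 116 at 10 min and 1363 and 1561 at 60 min, a difference of 3.754. For TEA1, YOR338W, RAD28 and HIS4 the differences were 3.586, 3.177, 2.318 and 2.187, and TEA1 and YOR338W are the neighbours described above.

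The other 3 were high at 10 min and low at 60 min. The oligopeptide transporter gene OPT1 stood at 79.4 and 91.5 in untreated cells, 176 and 174 at 10 min and 7.94 and 10.3 at 60 min, a log2 difference of -4.134 between the later times. ISF1 and SPS4 differed by -2.249 and -3.344, SPS4 at 13.9 and 15.7 in untreated cells, 48.2 and 59.5 at 10 min and 4.75 and 4.02 at 60 min.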

How the results depend on the processing

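The table's columns carry no replicate number, so the planned replicate block by the labels' numbers was not run. The columns' library numbers fall into 2 runs, 21 to 23 and 24 to 26, and no source states what the runs mark. A replicate block on these runs was added after seeing the data. With it, 1565 genes were called higher and 1738 lower, with 330 genes at least 2-fold higher, 513 at least 2-fold lower, 19 early-only rises and 38 early-only falls. Of the 235 genes tracked, RTC1, TFC7, TOR1 and YBL104C were no longer called in it, and none changed sign. Across genes, deviations from the group means within a run correlated at -0.12 between the 10 min and untreated libraries. They correlated at -0.08 between the 60 min and untreated ones and at 0.16 between the 60 min and 10 min ones. These correlations did not show that the numbers pair the samples. Some markers did differ by run. MF(ALPHA)1 stood at 5.02, 12.7 and 15.5 in libraries 24, 25 and 26 and at 3.25, 1.92 and 2.13 in 21, 22 and 23. STE3 was lower in the second run, at 8.34, 9.82 and 12.5 against 9.19, 10.4 and 14.6. The source of these differences was not tested. Scaling each library to its total signal gave 2560 higher and 1152 lower genes and 13 early-only rises, since it moved every log2 change up by about 0.21. Under it DAL81 stood at 0.03, GLN3 at 0.02, FCY21 at 0.07, GTR1 and YBL104C at 0.01, TIF4632 at 0.16 and TOR2 at 0.18, each opposite in sign to its value under the deposited scaling. Leaving out each library in turn gave 1199 to 1811 higher genes, 1403 to 1941 lower genes, 312 to 370 genes at least 2-fold higher, 497 to 560 at least 2-fold lower, 16 to 21 early-only rises and 32 to 39 early-only falls. TOR2 ran from -0.13 to 0.07 and UGA3 from -0.07 to 0.08 in those fits. The other counts named here moved by less than 1.5 times under the remaining settings. Of the 235 genes tracked through the 13 settings, 209 stayed on their side of the threshold in each, and GLN3, at -0.19 in each, crossed it with a minimum mean of 10, with no filter and with a robust prior. With 2 libraries per group, precision rests on the spread between them and on the variance shared across genes. Each fit that left a library out assumed that the lone one varied like the others. Since read numbers are unknown, counting error cannot be given for low genes, and levels cannot be compared between genes per length. All changes rest on the authors' scaling, and no source states what it is relative to. In the scaled values the median-of-ratios factors ran from 0.999 to 1.005 over the wild-type libraries. Total signal ran from 0.751 to 1.226 times its mean over the same libraries. The changes are therefore close to changes relative to the median gene, and the balance of rises and falls depends on that choice.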
